A study of Mus musculus with 8 samples.

Results

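Transcript clusters without a gene symbol made up 33121 of the 65956 clusters on the array. They were taken as all clusters whose identifier begins with TC and for which the platform's annotation table lists no symbol. A further 30473 such clusters carried exactly 1 symbol and 2176 carried several, and 186 clusters with identifiers of another form were left out. A transcript cluster is a set of short probes along a known gene or a predicted transcript, summarised to 1 log2 signal per array, and a cluster absent from the table is unnamed here rather than known to lie outside genes.

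The arrays measured RNA of whole lungs from 8 mice, 1 array per animal, and the study used them to ask how loss of host Atf4 changes the lung. All mice carried the tamoxifen-activated recombinase Rosa26::CreERT2, which is expressed from a locus active in most tissues, and all received tamoxifen. In 4 mice (Atf4Δ/Δ) the floxed Atf4 alleles had thereby lost exons 2 and 3, which loxP sites flank, and in the other 4 (Atf4WT/WT) both alleles were wild-type. The lungs were collected at 13 weeks of age, 4 weeks after tamoxifen, from 3 males and 1 female of each genotype. In whole tissue, fewer cells of a type and less RNA per cell cannot be told apart.

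Arrays of this kind hold many probe sets for long non-coding RNAs, small RNAs, antisense transcripts, alternative ends of genes and computationally predicted transcripts, and many of these transcripts are rare or made in few cells. Clusters are numbered along the chromosomes, and a cluster with no name can be described by the genes on either side of it. The lung holds platelets and red cells in its blood vessels and is a site where megakaryocytes release platelets. Its scaffold includes collagens and fibrillins made by fibroblasts. ATF4, made when cells sense stress or a lack of amino acids, is a transcription factor that adjusts amino acid supply and protein synthesis.

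The numbering of the clusters followed gene order, which allowed neighbours to be named. Of clusters with 1 symbol that matched the gene table of GRCm38.p6, 99.7% lay on the chromosome that the identifier names. On chromosomes 1 to 19 and X the start position went up in 98.9% of the steps from one identifier to the next, first along the plus strand and then along the minus strand, and 98.5% of 18135 clusters of listed strand lay on the strand of their run of identifiers. On Y the order was kept in only 61.2% of the steps. No build is named for the arrays, so positions of the clusters themselves are not given.

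The probe sequences of the clusters were not used here. To show the sequence next to the changes, promoters (250 bases before to 50 after the start) were taken from RefSeq for the genes with a significant change that flank the 12 clusters of the largest significant rise. There were 6 such genes and 5 had a listed promoter: Slamf1, Slfn1, Slfn4, Alox12 and Mrvi1. The 3 shown belong to the receptor gene Slamf1 (plus strand, chr1:171766882-171767181), the gene for the kinase substrate IRAG, Mrvi1 (minus strand, chr7:110982412-110982711), and the platelet lipoxygenase gene Alox12 (minus strand, chr11:70255321-70255620), each read 5′ to 3′ along its gene in GRCm38.p6. Capitals mark a match to the site of GATA factors, searched as NGATAN on both strands with A or T as the first base and A or G as the last. GATA factors direct megakaryocyte and red cell genes.
Slamf1: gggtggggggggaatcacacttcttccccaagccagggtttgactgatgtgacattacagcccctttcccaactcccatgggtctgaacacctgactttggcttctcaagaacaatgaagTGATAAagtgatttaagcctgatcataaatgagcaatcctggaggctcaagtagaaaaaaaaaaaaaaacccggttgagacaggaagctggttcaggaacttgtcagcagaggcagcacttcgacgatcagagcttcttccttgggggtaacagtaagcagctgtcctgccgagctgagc
Mrvi1: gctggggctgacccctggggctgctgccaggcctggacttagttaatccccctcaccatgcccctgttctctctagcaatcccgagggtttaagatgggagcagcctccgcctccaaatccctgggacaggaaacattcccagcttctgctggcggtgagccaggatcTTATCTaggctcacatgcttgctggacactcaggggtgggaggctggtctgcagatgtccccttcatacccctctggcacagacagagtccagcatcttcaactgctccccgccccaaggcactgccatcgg
Alox12: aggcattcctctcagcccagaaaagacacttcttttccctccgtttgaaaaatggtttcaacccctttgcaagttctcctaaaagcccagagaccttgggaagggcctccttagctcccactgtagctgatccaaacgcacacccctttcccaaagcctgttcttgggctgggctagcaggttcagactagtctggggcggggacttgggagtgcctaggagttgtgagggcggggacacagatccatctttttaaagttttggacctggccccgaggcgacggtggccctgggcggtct
The site was found once each in the promoters of Slamf1 and of the first start of Mrvi1, and no match lay in those of Slfn1, Slfn4, Alox12 or the second start of Mrvi1. Over all 32851 listed promoters 29.8% held it. A core of the composite site bound by ATF4, searched on both strands as TGATG followed by any base and AA, was in 0 of these 6 promoters and in 3.97% of all promoters. A match is only a description of the letters.

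Clusters without a symbol were dimmer than named ones. Their mean log2 signal over the 8 arrays had a median of 4.87 with quartiles of 4.08 and 6.58, against a median of 5.87 with quartiles of 4.43 and 8.49 for clusters with 1 symbol. Signals above 10 were read for 6.30% of the unnamed clusters and for 14.6% of those with 1 symbol. At the bright end the order turned, and 351 unnamed clusters exceeded 16 against 174 with 1 symbol. Of the unnamed clusters, 826 had the same 8 values as another cluster, in 207 sets of up to 63 clusters, and 0 of these was among the significant changes below.

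The level of dim signals can be read from the Y chromosome, since females have none. The 300 unnamed clusters of Y had a median signal of 4.12, and the arrays of the 2 females (4.02 and 4.18) lay within the range of those of the 6 males (3.99 to 4.16) or just above it. Readings at this level thus come also from clusters whose chromosome is absent, and the lower quartile of all unnamed clusters was 4.08.

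The brightest unnamed clusters showed no significant difference. TC1600002087.mm.1 read 19.58 ± 0.03 (SD, n = 4) in Atf4WT/WT and 19.60 ± 0.06 in Atf4Δ/Δ lungs, TC0100002078.mm.1 read 19.39 ± 0.04 and 19.39 ± 0.06, and TC0200002613.mm.1 read 19.15 ± 0.08 and 19.09 ± 0.13. Their groups overlapped, and their adjusted p lay between 0.835 and 0.984 (limma). By array the median over all unnamed clusters was 4.85 to 4.92 in Atf4WT/WT and 4.83 to 4.91 in Atf4Δ/Δ, and any pair of arrays correlated at 0.991 to 0.996 across these clusters, which share platform and normalisation.

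Loss of Atf4 raised or lowered few of these clusters. Of the 33121, 35 changed (adjusted p of at most 0.05 over all 65956 clusters and a fold above 1.5, limma), 23 higher and 12 lower in Atf4Δ/Δ. That is 0.106%, against 0.276% of all clusters and 0.459% of those with 1 symbol, where 140 changed. Higher clusters made up 0.0694% of the unnamed and 0.229% of all clusters, lower ones 0.0362% and 0.047%. An unadjusted p under 0.05 was reached by 3544 (10.7%), against 13.4% of clusters with 1 symbol, and 48 passed at any fold (0.145%, against 0.347% of all clusters). The difference between unnamed and named clusters in these shares was not tested.

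The direction was uneven in size. Of the 23 higher clusters 13 rose more than 2-fold and 5 more than 4-fold, up to 25.2-fold, whereas 0 of the 12 lower ones fell more than 2-fold and the largest fall was 1.87-fold. The median over the higher clusters was 5.95 in Atf4WT/WT and 7.93 in Atf4Δ/Δ, and over the lower ones 9.19 and 8.40. In Atf4WT/WT, 5 of those that rose read below the median unnamed cluster, and 0 of those that fell. All 35 had groups that did not overlap. Over all unnamed clusters, the groups stood apart with Atf4Δ/Δ higher in 489 (1.48%) and lower in 1378 (4.16%), and over all clusters in 2.83% and 4.41%.

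The size of the list depended on single arrays. It was 60 without Atf4WT/WT replicate 1, 18 without replicate 2, 4 without replicate 3 and 24 without replicate 4. It was 4, 17, 22 and 40 without Atf4Δ/Δ replicates 1, 2, 3 and 4. The 4 that remained without Atf4WT/WT replicate 3 were the same as without Atf4Δ/Δ replicate 1, and they kept their call in each of the 8 fits: TC1100001731.mm.1, TC1100001732.mm.1, TC1100003091.mm.1 and TC0400001928.mm.1. The other 31 lost it in at least 1 fit, with an adjusted p of at most 0.161. With males only 1 was left, TC1100001732.mm.1. All 35 kept their sign in every one of these fits. That had to happen, since their groups do not overlap, and it is no test of the changes.

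Atf4 itself, checked in its own cluster, read 6.99, 8.03, 7.995 and 7.58 in Atf4WT/WT replicates 1 to 4 and 6.34, 6.26, 6.48 and 6.38 in Atf4Δ/Δ. It fell by 1.29 (SE 0.21, adjusted p = 0.0485, limma), and Atf4WT/WT replicate 1 was the lowest of its group.

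The largest rise of any unnamed cluster was that of TC0800000889.mm.1 on chromosome 8. It read 6.51, 6.10, 6.02 and 6.60 in Atf4WT/WT replicates 1 to 4 and 11.54, 10.49, 12.23 and 9.59 in Atf4Δ/Δ replicates 1 to 4. The knockout lungs were all far above the controls and differed among themselves by over 2 units on the log2 scale. The difference was 4.66 (SE 0.49, 25.2-fold, adjusted p = 0.0133). The nearest clusters with 1 symbol on either side differed by 0.01 and -0.01 and did not pass the test. Erythroid markers moved alongside: 3 of the 8 listed had a cluster with 1 symbol, all 3 were higher, 1 significantly (Alas2, which starts haem production in red cells, 2.93, adjusted p = 0.0410), and their mean level was 6.92 to 7.24 in Atf4WT/WT and 8.85 to 10.24 in Atf4Δ/Δ lungs. Their part in the result was not tested.

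The second largest significant rise was that of TC1100000960.mm.1 on chromosome 11. It read 4.38, 4.39, 4.67 and 5.59 in Atf4WT/WT and 7.62, 7.48, 7.20 and 6.85 in Atf4Δ/Δ lungs. Atf4WT/WT replicate 4 was the highest control and Atf4Δ/Δ replicate 4 the lowest knockout. The difference was 2.53 (SE 0.28, 5.78-fold, adjusted p = 0.0149). Its flanks, 4930544D05Rik and the ubiquitin ligase gene Rnf167, differed by -0.05 and 0.12 and did not pass the test. Gp1ba, encoding the platelet receptor for von Willebrand factor, is a gene that starts between them in the gene table and that no cluster in the annotation table carries, but the files do not pair this cluster with it.

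Another pair stood beside Itgb3, which encodes the beta chain of the platelet fibrinogen receptor. TC1100001731.mm.1 read 5.61, 5.74, 5.74 and 6.23 in Atf4WT/WT and 8.03, 8.28, 8.14 and 7.72 in Atf4Δ/Δ, a difference of 2.21 (SE 0.16, 4.63-fold, adjusted p = 0.00380). TC1100001732.mm.1, the next identifier, read 6.03, 6.14, 5.44 and 5.99 against 8.18, 8.52, 8.24 and 7.85, a difference of 2.30 (SE 0.18, 4.92-fold, adjusted p = 0.00492). Both pairs of groups were over 1 unit apart. Itgb3 itself rose by 3.30 (SE 0.46, adjusted p = 0.0329), from 9.68 to 12.98, while Gm11639 on the other side differed by 0.06. Efcab13, whose symbol no cluster carries, lies in the same interval of the gene table.

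TC0100001601.mm.1 lay between 2 receptor genes of the SLAM family, which regulate blood cell contacts. It read 6.29, 5.59, 6.32 and 6.26 in Atf4WT/WT and 8.11, 8.01, 9.0001 and 7.86 in Atf4Δ/Δ. The difference was 2.13 (SE 0.26, 4.38-fold, adjusted p = 0.0207). Slamf1, on the lower side, rose by 2.48 (SE 0.38, adjusted p = 0.0429). Cd84, on the upper side, differed by 1.15 (adjusted p = 0.0843), and the groups of all 3 clusters did not overlap.

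TC1100001240.mm.1 lay between Slfn1 and Slfn4, members of the Schlafen family of leukocyte growth regulators. It read 6.56, 6.52, 6.28 and 6.99 against 8.005, 8.66, 7.46 and 8.11, a difference of 1.47 (SE 0.24, 2.78-fold, adjusted p = 0.0489), which did not pass with sex as a covariate (adjusted p = 0.0717). Slfn1 rose by 1.76 (adjusted p = 0.0133) and Slfn4 by 2.89 (adjusted p = 0.0232). Atf4Δ/Δ replicate 2 was the highest and replicate 3 the lowest knockout lung in all 3 clusters. The genes of this family are similar in sequence, so how their probes share signal is uncertain. The 10 neutrophil markers were all higher, 0 of them significantly (7 at an unadjusted p under 0.05), and their mean level ran from 8.87 in Atf4Δ/Δ replicate 3 to 11.75 in replicate 2, against 7.94 to 8.70 in Atf4WT/WT. Their part in the result was not tested.

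**Figure D1:**
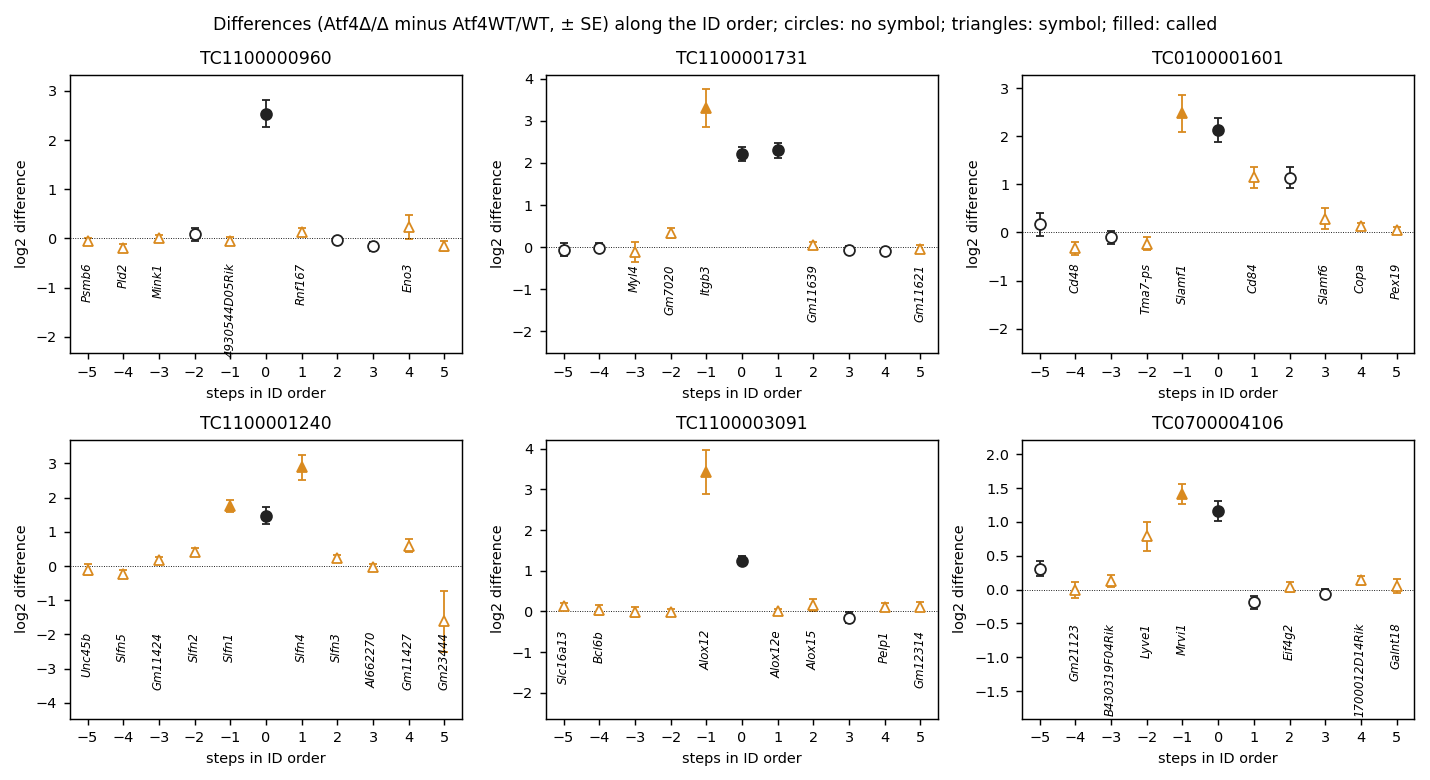
Difference between genotypes (Atf4Δ/Δ minus Atf4WT/WT, log2, y axis; bars show the SE) for 6 unnamed clusters and the clusters up to 5 steps away in identifier order (x axis). Circles have no symbol, triangles have 1 or, where unlabelled, several, and filled symbols changed significantly. TC1100000960.mm.1 stands alone, and the other 5 lie beside a gene that rose.

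Alox12, which encodes the 12-lipoxygenase of platelets, also had an unnamed companion. TC1100003091.mm.1 read 4.92, 4.82, 4.68 and 4.97 in Atf4WT/WT and 6.26, 6.23, 6.02 and 5.89 in Atf4Δ/Δ, a difference of 1.25 (SE 0.10, 2.38-fold, adjusted p = 0.00570). Alox12 rose by 3.42 (SE 0.54, adjusted p = 0.0462) and Alox12e, on the other side, differed by 0.00. Beside Mrvi1, whose product mediates cyclic GMP signals in platelets and smooth muscle, TC0700004106.mm.1 read 6.26, 5.70, 5.73 and 6.11 against 6.88, 7.03, 7.32 and 7.20, a difference of 1.16 (SE 0.15, 2.24-fold, adjusted p = 0.0232). Mrvi1 rose by 1.41 (adjusted p = 0.0133), and Eif4g2, a translation factor gene 2 steps away, differed by 0.04.

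A further 4 of the 12 largest significant rises had flanks that did not pass the test. TC0100001644.mm.1 rose from 5.45 ± 0.12 (SD, n = 4) to 6.92 ± 0.40 (1.47, SE 0.18, adjusted p = 0.0200). Its flanks differed by -0.12 and 0.07. TC1600001380.mm.1 rose from 6.64 ± 0.08 to 7.93 ± 0.32 (1.29, SE 0.14, adjusted p = 0.0149), next to the transcription factor gene Etv5 (-0.39) and with Dgkg, a diacylglycerol kinase gene, in its interval. TC0600002023.mm.1, beside the semaphorin receptor gene Plxna4 (0.43), rose from 4.44 ± 0.26 to 5.85 ± 0.41. TC0X00000593.mm.1, between Gm14674 and the neuronal gene Slitrk2, rose from 4.87 ± 0.23 to 6.003 ± 0.21. The last 2 started below or at the median of unnamed clusters, and their adjusted p were 0.0387 and 0.0198. With sex as a covariate the call of TC0600002023.mm.1 ended, at an adjusted p of 0.0551.

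**Figure D2:**
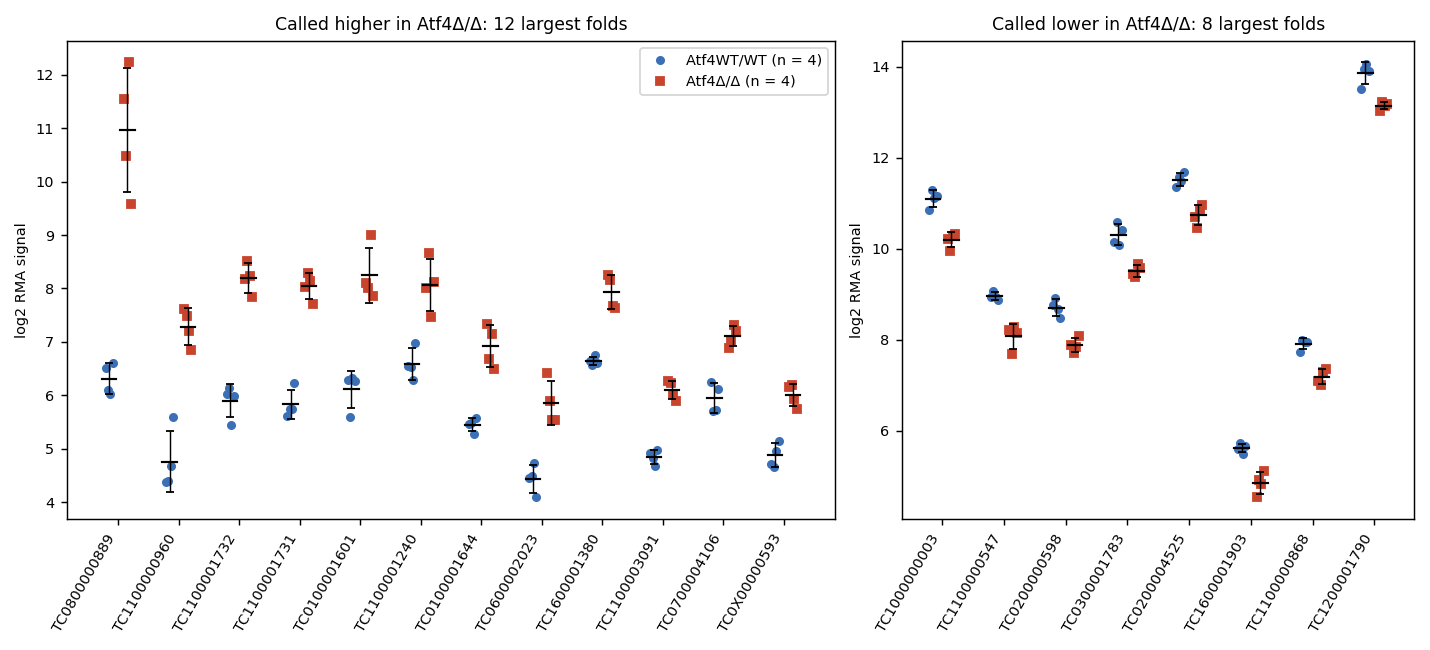
Log2 RMA signal (y axis) of each array for the 12 unnamed clusters of the largest significant rise and the 8 of the largest significant fall (x axis), with circles for Atf4WT/WT, squares for Atf4Δ/Δ, and black bars for the mean ± SD (n = 4). No groups overlap. TC0800000889.mm.1 has the widest knockout group (9.59 to 12.23).

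The remaining 11 higher clusters rose by 0.65 to 1.07. The largest of them, TC0900002107.mm.1 (7.87 to 8.94, adjusted p = 0.0149), stood beside Ubash3b, a phosphatase gene that restrains platelet and T-cell signalling, which rose by 1.68. TC1100000363.mm.1 (0.91) stood beside Lcp2 (1.52), an adaptor gene of platelet and T-cell receptors. TC1500000786.mm.1 (0.77) stood beside Parvb (1.24), which encodes an actin-binding protein, and TC0200004247.mm.1 (0.80) 2 steps from Tcp11l1 (0.61). All 4 neighbours passed the test. TC0600002393.mm.1 (0.87) and TC0600002394.mm.1 (0.68) followed each other in identifier order. On chromosome 4, TC0400001928.mm.1 rose by 0.95 (adjusted p = 0.0103) and TC0400001107.mm.1 by 0.79. The brightest of the 35, TC0200000590.mm.1, read 16.52 ± 0.19 and 17.21 ± 0.13. With sex as a covariate this call and that of TC0400001107.mm.1 ended (adjusted p = 0.0514 and 0.0623), the latter also with array weights (0.0658).

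The 12 lower clusters fell by 0.64 to 0.91. The largest significant fall was that of TC1000000003.mm.1, which read 10.84, 11.29, 11.12 and 11.16 in Atf4WT/WT and 10.21, 9.95, 10.29 and 10.33 in Atf4Δ/Δ. It fell by 0.91 (SE 0.11, 1.87-fold, adjusted p = 0.0232). Ppp1r14c, a phosphatase inhibitor gene next to it, differed by -0.58 (adjusted p = 0.0768), and no flanking gene of any of the 12 passed the test.

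Among these were 2 clusters in intervals that hold matrix genes whose symbols no cluster carries. TC1100000547.mm.1 read 8.93, 9.07, 8.93 and 8.88 in Atf4WT/WT and 8.21, 7.67, 8.27 and 8.14 in Atf4Δ/Δ. It fell by 0.88 (SE 0.13, adjusted p = 0.0368) between Hnrnph1 and Grm6, an interval with Adamts2, which encodes the enzyme that trims procollagen. The other unnamed clusters of that interval differed by 0.16, -0.07 and -0.28 and did not pass the test. TC0200004525.mm.1 read 11.35, 11.57, 11.48 and 11.68 against 10.70, 10.45, 10.86 and 10.96. It fell by 0.77 (SE 0.12, adjusted p = 0.0424) between Gm14002 and Cep152, an interval with Fbn1, the fibrillin gene. The other unnamed clusters there differed by -0.11, 0.16 and 0.04 and did not pass the test. The annotation pairs neither of the fallen clusters with the gene of its interval. Fibroblast markers moved the same way: 5 of 6 were lower, 3 significantly (Col1a1, Col1a2 and Col3a1), and their mean level was 10.71 to 11.04 in Atf4WT/WT and 8.92 to 9.97 in Atf4Δ/Δ. Their part in the result was not tested. Median-centring of each array ended the call of TC0200004525.mm.1, at an adjusted p of 0.0544.

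On chromosome 12, TC1200001790.mm.1 lay next to Nkx2-1, the gene of the transcription factor that keeps lung epithelial identity, and 3 steps from the surfactant-associated pseudogene Sfta3-ps. It read 13.50, 13.95, 14.05 and 13.90 in Atf4WT/WT and 13.03, 13.22, 13.13 and 13.18 in Atf4Δ/Δ, and fell by 0.71 (SE 0.11, adjusted p = 0.0489). That call ended with trend and robust eBayes and with sex as a covariate (adjusted p = 0.0541 and 0.0573). The identifier before it, TC1200001789.mm.1, differed by -0.69 and just missed the threshold (adjusted p = 0.0506). Nkx2-1 differed by -0.18 and Sfta3-ps by -0.45 (adjusted p = 0.462 and 0.0690). TC0700000811.mm.1, beside Napsa, the protease gene that processes a surfactant protein, fell by 0.70 (SE 0.07, adjusted p = 0.0133) where Napsa differed by -0.43. The lung epithelial markers read 15.91 to 16.01 in Atf4WT/WT and 15.81 to 15.92 in Atf4Δ/Δ, 0 of 7 passing the test and 2 with an unadjusted p under 0.05.

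The other 4 of the 8 largest significant falls were TC0200000598.mm.1 beside Niban2 (8.70 to 7.88), TC0300001783.mm.1 (10.31 to 9.51), TC1600001903.mm.1 (5.62 to 4.85) and TC1100000868.mm.1 (7.91 to 7.18). Their adjusted p lay between 0.0263 and 0.0420. TC1600001903.mm.1 was 7 steps from the nearest cluster with a symbol, Mir691, and its call ended with array weights and with sex as a covariate (adjusted p = 0.0532 and 0.0655). The last 3 falls, TC0700001425.mm.1, TC0500000578.mm.1 and TC0700004381.mm.1, were at differences of -0.69, -0.68 and -0.64.

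Just outside the thresholds lay clusters of similar size. The smallest adjusted p above 0.05 belonged to TC0800002695.mm.1 (-0.63, 0.0501), TC0700001309.mm.1 (0.69, 0.0506) and TC1200001789.mm.1. The largest folds under 1.5 among those with an adjusted p of at most 0.05 were the differences of TC1600001451.mm.1 (0.58), TC0600003204.mm.1 (-0.58) and TC0700001297.mm.1 (0.58). Their groups stood apart as well.

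Neighbours moved together at some places and not at others. The nearest cluster with 1 symbol was 1 step away for 61.9% of the unnamed clusters. Over 33103 pairs the differences of cluster and neighbour correlated at r = 0.139, with the same sign in 54.5%. Over the 35 changed clusters r was 0.372 and 24 had the same sign. The points share arrays, normalisation and, in part, genes. For the 35, the nearest named cluster was itself changed in 9 (25.7%), against 0.486% for all unnamed clusters. Counting either side, 10 of the 23 higher clusters had a flank that was changed in the same direction, and 0 of the 12 lower ones did. Over all unnamed clusters 157 had a changed flank of their own direction (0.474%). Lower flanks were rarer to begin with, since 31 of all 65956 clusters were lower and 151 higher. The members chosen for change and their neighbours come from the same animals, so these shares are descriptions.

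**Figure D3:**
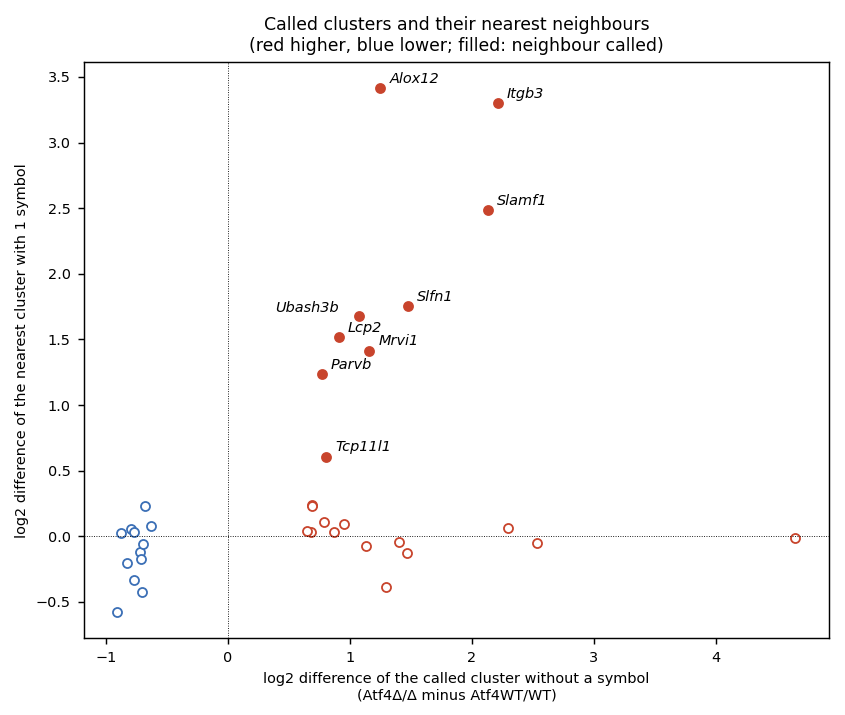
Difference of each of the 35 changed unnamed clusters (x axis) and of the nearest cluster with 1 symbol (y axis), both as Atf4Δ/Δ minus Atf4WT/WT on the log2 scale. Red clusters were higher and blue lower, and filled points have a neighbour that changed. The 9 filled points all lie at the upper right, and the largest rise, 4.66, has a neighbour at -0.01.

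Intervals that hold an uncarried gene were common among the changed clusters. Of 21900 protein-coding genes in the gene table, 1229 had a symbol that no cluster carries. Such a gene started between the flanks, on the same strand where a strand was listed, for 14 of the 35 changed clusters and for 10.9% of the 32205 unnamed clusters with usable flanks. These counts are order alone, and the annotation pairs none of these clusters with a gene. Clusters that share an interval, such as the 2 beside Itgb3, are each counted. The changed clusters were also brighter, with median signals of 6.93 (higher) and 8.80 (lower) against 4.87 for all unnamed clusters.

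By chromosome the changes were spread out. A changed cluster lay on 15 of the 21 chromosomes, and chromosomes 13, 14, 17, 18, 19 and Y had 0. Chromosome 11 had 8 of the 35, 6 higher and 2 lower (0.412% of its 1942). The most changed clusters with 1 symbol, 17, also lay there (0.782% of 2175). Their share was highest on chromosome 15, at 1.08% (11 of 1019). Chromosomes 2 and 7 had 4 each. The share at an unadjusted p under 0.05 ran from 8.28% on chromosome 18 to 12.6% on chromosome 2 and was 3.33% on Y. Unnamed clusters were dimmer at the median than those with 1 symbol on 21 of 21 chromosomes.

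The median difference was slightly below 0 on every chromosome, between -0.05 and -0.03 on the autosomes and -0.01 on Y. Over all unnamed clusters it was -0.04, with 63.1% below 0. Median-centring of each array brought it to -0.01 with 54.3% below 0, and cyclic loess to -0.01 with 52.8%.

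**Figure D4:**
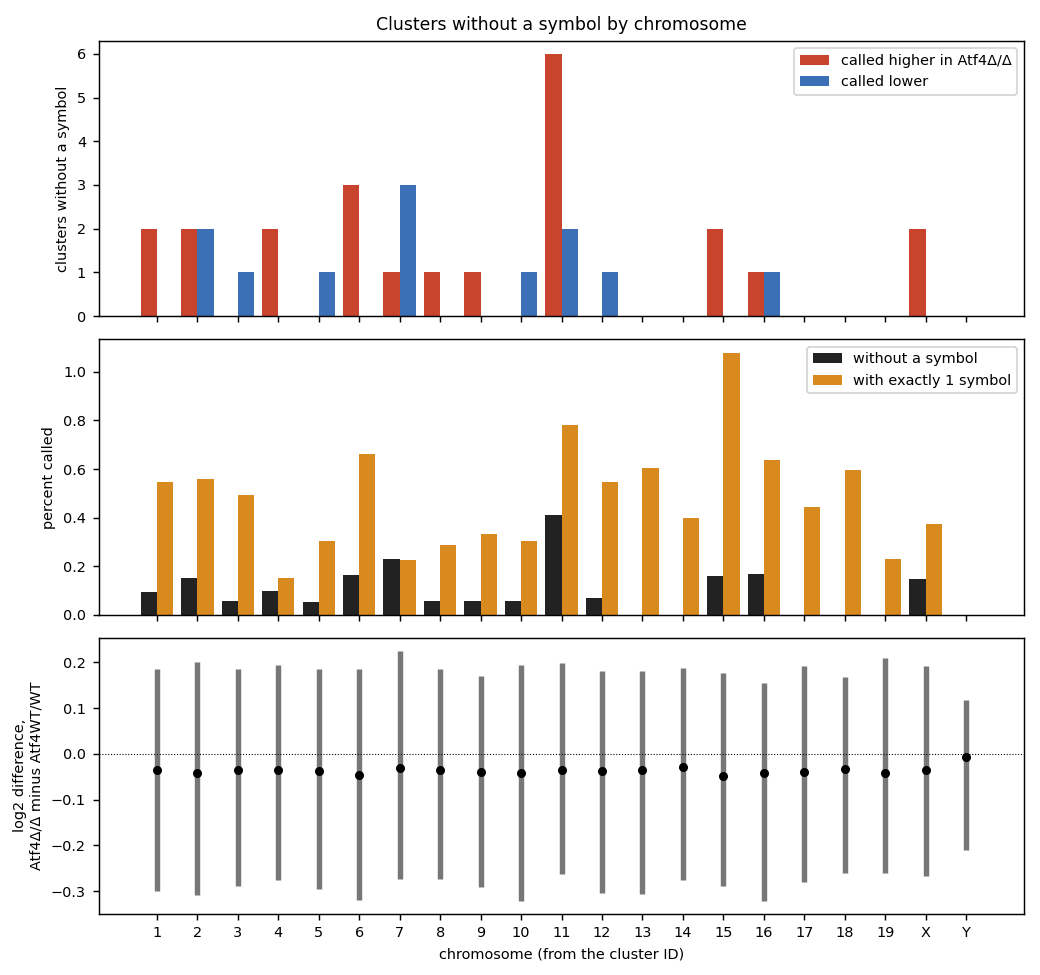
Unnamed clusters by chromosome (x axis): the number that changed in each direction (top), the percent that changed beside that of clusters with 1 symbol (middle), and the median log2 difference, Atf4Δ/Δ minus Atf4WT/WT, with bars from the 5th to the 95th percentile (bottom). Chromosome 11 has the most, 8, and the medians lie just below 0.

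The single largest difference on each chromosome was between 0.63 and 4.66 in size, and Atf4Δ/Δ was higher in 15 of 21. It belonged to a changed cluster on only 3 chromosomes: 1, 8 and 11. Of the other 18, 9 had overlapping groups. These clusters are given here because of the size of their difference.

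In 4 of the clusters that missed the threshold, 1 control array stood apart. TC0200002707.mm.1, next to the platelet tubulin gene Tubb1, read 8.98, 9.68, 9.15 and 12.14 in Atf4WT/WT and 13.70, 13.48, 13.50 and 12.85 in Atf4Δ/Δ (3.39, SE 0.62, adjusted p = 0.0706). TC0700002152.mm.1, next to Gp6, the platelet collagen receptor gene, read 6.80, 6.70, 6.57 and 8.86 against 9.98, 9.98, 9.93 and 9.74 (2.67, SE 0.45, adjusted p = 0.0555). TC0400003392.mm.1 read 7.91, 7.96, 8.15 and 10.09 against 11.19, 10.89, 10.64 and 10.12 (2.18, SE 0.47, adjusted p = 0.118). TC0500000867.mm.1, next to Uso1, read 4.93, 5.32, 4.96 and 6.90 against 8.19, 7.90, 7.80 and 7.55 (2.33, SE 0.40, adjusted p = 0.0581). In all 4, Atf4WT/WT replicate 4 lay well above the other controls.

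Without that array the 4 differences were 4.11, 3.21, 2.70 and 2.79, with adjusted p of 0.00105, 2.63e-05, 0.00616 and 0.00115. The array was picked as the highest control, so leaving it out had to enlarge the differences. That all 4 then passed is therefore no test of a change. With any other array left out, the adjusted p of TC0200002707.mm.1 lay between 0.0735 and 0.209. Of the 25 unnamed clusters that were over 1 unit higher in Atf4Δ/Δ with groups apart, 13 had changed significantly and 16 had Atf4WT/WT replicate 4 as their highest control, against 7557 of all 33121. Of 10 listed platelet and megakaryocyte markers 8 had a cluster with 1 symbol, and all 8 were higher, 3 significantly (Itgb3, Tubb1 and Itga2b). Their mean level was 8.56, 9.03, 8.64 and 10.91 in Atf4WT/WT replicates 1 to 4 and 11.18 to 12.34 in Atf4Δ/Δ. Their part in the result was not tested.

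Other large differences followed other arrays. TC0600002392.mm.1 is the identifier before the pair TC0600002393.mm.1 and TC0600002394.mm.1. It read 7.29 to 8.02 in Atf4WT/WT and 8.50 to 10.18 in Atf4Δ/Δ (2.00, adjusted p = 0.0560). It passed without Atf4Δ/Δ replicate 2 (2.35, adjusted p = 0.0184), its lowest knockout, a choice that likewise enlarges the difference. TC1200002553.mm.1, beside the immunoglobulin gene Ighm, read 11.998 in Atf4WT/WT replicate 1 and 9.22 to 10.10 in the other 7 lungs. TC1300001160.mm.1, TC1400001179.mm.1 and TC0Y00000230.mm.1 lay on different chromosomes and had the same order of the controls. Replicate 1 was lowest (5.14, 4.67 and 7.35) and replicate 2 highest (9.55, 8.55 and 10.84), so their groups overlapped. Without Atf4WT/WT replicate 1 the differences were -2.21, -1.92 and -2.03 (adjusted p = 0.0791, 0.0617 and 0.0450). Only TC0Y00000230.mm.1 passed, and leaving out the lowest control enlarges a fall by choice. TC0Y00000230.mm.1 read 9.52 and 7.98 in the females, although they have no Y.

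Sex was seen in 3 unnamed clusters, all on Y and higher in males (0.00906% of the unnamed, 0.0106% of all clusters). TC0Y00000235.mm.1 read 5.47 and 5.36 in the females and 11.45 to 11.94 in the males, a difference of -6.21 (female minus male, SE 0.12, adjusted p = 6.09e-07). TC0Y00000234.mm.1 read 4.95 and 4.64 against 7.68 to 8.16 (-3.06, adjusted p = 9.29e-05). Both lay between Uty and Usp9y in identifier order, in an interval with Ddx3y, a helicase gene expressed in most male tissues. On Y this order followed the gene table in only 61.2% of the steps, and the annotation pairs neither cluster with Ddx3y. TC0Y00000232.mm.1, on the other side of Uty, differed by -1.70 (adjusted p = 0.00810), a call that ended without Atf4WT/WT replicate 3 or without Atf4Δ/Δ replicate 1, 2 or 3 (adjusted p 0.0541 to 0.273). By genotype the 3 differed by -0.13, -0.24 and 0.06.

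The mitochondrial genome had 19 unnamed clusters with a median signal of 10.52. They read lower in Atf4Δ/Δ in 18 of 19, with a median difference of -0.47, 7 at an unadjusted p under 0.05 and 0 significant after adjustment. Their median per array was 10.41, 10.66, 10.65 and 11.23 in Atf4WT/WT and 10.43, 10.29, 10.15 and 10.28 in Atf4Δ/Δ, so the groups overlapped by 1 array. The 7 mitochondrial clusters with 1 symbol were all lower as well, at a median difference of -0.26, with 0 significant and 3 at an unadjusted p under 0.05.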

How the data were processed

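Total RNA of 8 lungs was amplified, biotin-labelled and hybridised to Clariom D mouse arrays. The deposited values are log2 signals that the authors made with RMA at default settings in Transcriptome Analysis Console 4, which corrects background, quantile-normalises arrays and summarises probes. The library file version and genome build are not given in the sources used here. Quantile normalisation forces arrays to nearly one distribution, so a shift common to most clusters would not show. Values above 16 mean that folds hold on the deposited scale only.

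All 65956 clusters were fitted in 1 model per comparison by lmFit and eBayes of limma 3.58.1 (R 4.3.3). P-values are two-sided and were adjusted over the whole table by the Benjamini-Hochberg method. As in the study's methods, a change was called where the fold exceeded 1.5 and the adjusted p did not exceed 0.05. Differences are knockout minus wild-type. The fit was tested on simulated data. Each array was taken as 1 animal, and the number of animals limits the precision. Neighbours are the nearest clusters with exactly 1 symbol in identifier order, and gene order, intervals and promoters came from RefSeq (GRCm38.p6). Named clusters are the 12 largest rises and the 8 largest falls among the called, those just outside the thresholds, the 3 brightest and those called for sex. Some genes beside named clusters are not reported here. The other called clusters and those of the largest difference on each chromosome were named after their values were seen. The clusters and marker lists were chosen with earlier results of these data known. Alternatives were other scalings, filters on dim clusters, trend and robust eBayes, array weights, a sex term and fits of males only. Others were a block for the replicate number, each array left out, a Student's t-test and other thresholds. Replicate numbers did not pair the animals. Figures were drawn with matplotlib 3.10.9.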

Additional observations from a re-analysis of the deposited data

Results flagged for a closer look

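Among 94 groups of 4 arrays, 9 held an array far from the other 3. The 94 groups were both genotypes of the called clusters, those just outside the thresholds, the 3 brightest and those called for sex. Uncalled clusters of the largest difference on a chromosome were not screened. In TC0700002152.mm.1, 1 of these, Atf4WT/WT replicate 4 read 8.86 and the other controls 6.57 to 6.80. Chance gives about 1 group in 20, a rate that cannot be set against all 9. Of these 9, 5 were arrays of females in clusters of Y. Those clusters were named for their difference by sex, and each group held 1 female, so that choice set the result. TC0Y00000235.mm.1 read 5.47 in Atf4WT/WT replicate 3 and 5.36 in Atf4Δ/Δ replicate 2, TC0Y00000234.mm.1 read 4.95 and 4.64 there, and TC0Y00000232.mm.1 read 4.58 in Atf4Δ/Δ replicate 2. The other 4 were in changed clusters. TC0100001601.mm.1, between Slamf1 and Cd84, read 5.59 in Atf4WT/WT replicate 2 and 6.26 to 6.32 in the other controls. TC0200004247.mm.1 read 8.64 in Atf4WT/WT replicate 2 and 8.93 to 8.98 in the others. TC0500000578.mm.1 read 5.74 in Atf4Δ/Δ replicate 2 and 5.399 to 5.45 in the others. TC0X00000383.mm.1 read 8.34 in Atf4Δ/Δ replicate 4 and 8.53 to 8.56 in the others.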

How the results depend on the processing

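The 35 called clusters kept their sign under every alternative in which they were tested, but the number called did not hold in smaller fits. As their groups do not overlap, only the other scalings could have turned a sign. Median-centring, cyclic loess, both filters on dim clusters, trend and robust eBayes, array weights and sex as a covariate gave 33 to 44 calls, of which 29 to 35 were among the 35. Males only gave 1 (1 higher and 0 lower), with 3028 at an unadjusted p under 0.05, and the replicate number as a replicate block gave 0 (0 higher and 0 lower), with 3596. The numbers do not pair the animals: same-numbered arrays correlated at -0.038, 0.061, 0.027 and -0.187 in their deviations. A Student's t-test gave 0 after adjustment (0 higher and 0 lower), with 2961. The paper names that test for experiments with 2 groups, but not in its microarray analysis. An adjusted p of at most 0.1 gave 68 (42 higher and 26 lower), and without a fold minimum 19 were lower. With 1 array left out, 4 to 60 were called, 4 to 27 higher and 0 to 36 lower, and 2 to 3 for sex. The fits with fewer arrays have fewer animals, and the cause of each lost call was not tested. Agreement in sign with the nearest named cluster was 54.5%, and 53.4% with the higher-identifier side only. Of the brightest clusters, TC0200002613.mm.1 turned to 0.0160 with cyclic loess, and TC0100002078.mm.1 to 0.0202 with median-centring and 0.0686 with cyclic loess. With 1 array left out TC0100002078.mm.1 lay between -0.0262 and 0.0159 and TC1600002087.mm.1 between -0.0115 and 0.0367. Dim signals limit the rest, since clusters of Y read a median near 4 in both sexes.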
